A study of Mus musculus with 298 samples.

Results

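The suprachiasmatic nucleus (SCN), the circadian clock in the hypothalamus, uses peptides as transmitters, and its opioid transcripts were followed here in single mouse neurons. The 7 genes are the 3 peptide precursors Penk, Pdyn and Pnoc and the 4 receptors Oprm1, Oprd1, Oprk1 and Oprl1, taken by name from the 22800 gene symbols of the deposited count table. Each library came from 1 neuron whose firing was recorded with a patch pipette and whose content was then drawn into that pipette. The mice were kept with lights on and off for 12 h each, and brain slices were prepared close to ZT0 (lights on) for day cells and close to ZT12 (lights off) for night cells. The sources used here do not say how cells were scored for cFOS.

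By day the active neurons numbered 51 cFOS+ and 27 cFOS-, the silent ones 17 cFOS+ and 32 cFOS-, and the depolarized ones 2 cFOS+ and 7 cFOS-. By night the active neurons numbered 41 cFOS+ and 46 cFOS-, the silent ones 35 cFOS+ and 35 cFOS-, and the depolarized ones 3 cFOS+ and 2 cFOS-. No strain, genotype, age, animal or slice is named for any cell, so each group is 1 collection of cells and no difference below was tested. The libraries held 297 distinct cells, because those of cells 70 and 71 (night silent, 1 of each cFOS label) had almost the same profile and were averaged to 1 cell with no cFOS label. The depth per cell had a median of 6320667 reads (lowest 3187057, highest 25535298). All 297 cells had at least 100 CPM (a gene's reads scaled to the cell's total) of summed neuronal markers. A sum of 100 CPM was reached by 8 SCN markers in 79.1% of cells, by 11 microglial markers in 113, by 10 astrocyte markers in 102 and by 8 oligodendrocyte markers in 138. The transcript behind the cFOS label, Fos, had 2005 CPM over the cells labelled cFOS+ and 2676 CPM over those labelled cFOS-, so it did not follow the label.

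Opioid peptides are cut from large precursor proteins in the secretory pathway and released from dense-core vesicles. Penk yields mainly enkephalins, which act on the mu and delta receptors (Oprm1, Oprd1), Pdyn yields dynorphins, which prefer the kappa receptor (Oprk1), and Pnoc yields nociceptin, whose receptor is Oprl1. All 4 receptors couple to inhibitory Gi/o proteins, which lower cAMP, open potassium channels and close calcium channels. In the SCN, enkephalin is a known peptide of local neurons, and Vip and Avp mark the major neuron classes of the core and the shell.

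Each precursor carries a short coding stretch behind a pair of basic residues. The stretches below were read from the coding sequences of the GENCODE M21 transcripts. Each stretch has 5 codons, for tyrosine or phenylalanine, glycine, glycine, phenylalanine and a last residue whose codon is in capitals. The stretch of Pnoc differs from those of Penk and Pdyn in its first and last residue. Penk copy 6 and Pdyn copy 2 have the same bases, so the stretch alone does not separate Penk from Pdyn. Penk, on chromosome 4, holds 6 copies that end in methionine (Met-enkephalin) and 1 that ends in leucine (Leu-enkephalin).
Penk copy 1: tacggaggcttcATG
Penk copy 3: tatggcggcttcATG
Penk copy 6: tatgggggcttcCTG
Pdyn, on chromosome 2, holds 3 copies, all with leucine, which begin its opioid peptides.
Pdyn copy 1: tatggcggctttTTG
Pdyn copy 2: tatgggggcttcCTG
Pdyn copy 3: tatggtggtttcCTG
Pnoc, on chromosome 14, holds 1 copy, which begins with phenylalanine and ends with threonine and opens nociceptin.
Pnoc copy 1: tttgggggcttcACC

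Penk was the most abundant precursor. It had 303.9 CPM over all cells, and 66 of 297 cells (22.2%, exact 95% interval 17.6 to 27.4%) held 100 CPM or more, the level at which a cell is called a Penk cell below. Intervals of CPM (exact Poisson) and of shares (exact Clopper-Pearson) cover counting error only. Between the highest cell, at 9937 CPM, and the 200 cells with no read, few cells lay near the threshold: 3 had 50 to 100 CPM and 9 had 100 to 200 CPM. The median Penk cell had 575 CPM, and the top 5 cells gave 40.4% of all Penk reads. Penk lies at chr4:4133531-4138819 on the minus strand (GRCm38, GENCODE M21), and its 5′ end overlaps A830012C17Rik, a plus-strand gene that the count table does not list.

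Pnoc and Pdyn marked small sets of cells. Pnoc had 49.6 CPM over all cells and reached 100 CPM in 21 cells (7.07%, 4.43 to 10.6%), with 538 CPM in the median of these and 1356 CPM in the highest. Pdyn had 23.6 CPM over all cells and reached 100 CPM in 19 cells (6.40%, 3.90 to 9.81%), with 240 CPM in the median of these and 1329 CPM in the highest. A further 7 cells had 50 to 100 CPM of Pnoc, against 3 with 100 to 200 CPM, so the number of Pnoc cells depends on the threshold more than that of Penk cells. Pdyn lies at chr2:129686565-129699844 and Pnoc at chr14:65400673-65425472, both on the minus strand and with no overlapping gene.

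Among the receptors, the nociceptin receptor Oprl1 stood far above the classical opioid receptors. Oprl1 had 191.8 CPM over all cells and reached 100 CPM in 114 cells (38.4%, 32.8 to 44.2%), more cells than any precursor. The median Oprl1 cell had 357.4 CPM and the highest 4307 CPM. The kappa receptor Oprk1 had 12.4 CPM and reached 100 CPM in 12 cells (4.04%, 2.10 to 6.95%), with 803 CPM in the highest. The mu receptor Oprm1 had 0.847 CPM, with reads in 21 cells and 100 CPM in 1 of them, at 141 CPM. The delta receptor Oprd1 had 7 reads in all, in 5 cells, and no cell passed 0.581 CPM. It reached 100 CPM in 0 of 297 cells, which allows a share of up to 1.23%. Oprm1 (chr10:6758506-7038198, plus strand) overlaps Gm10945 and Ipcef1 on the minus strand, and because the use of strand in counting is not given, their reads cannot be told apart.

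Per length, the order of levels was the same at the top. Divided by the merged exon length in GENCODE M21, the pooled level was 186 CPM per kb for Penk, 51.1 for Oprl1, 23 for Pnoc and 8.17 for Pdyn. Oprk1 followed at 1.35 CPM per kb, Oprm1 at 0.105 and Oprd1 at 0.000862. The Poisson intervals of neighbours in this order do not overlap, but they cover the counting of pooled reads and leave out the spread between cells. No spread over animals can be given for the order.

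**Figure D1:**
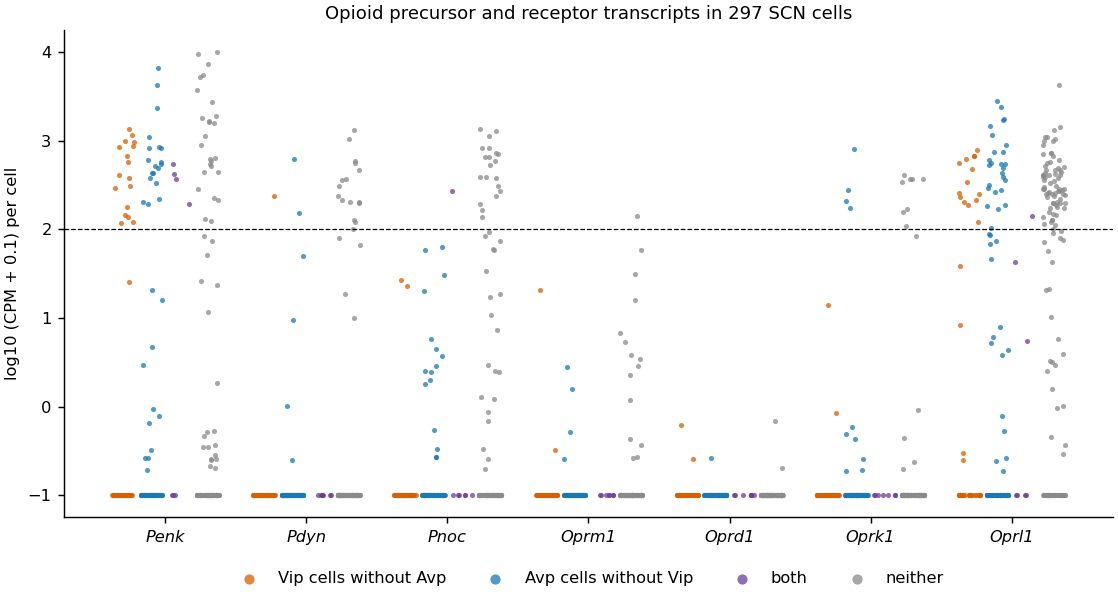
Level of each member in each of the 297 cells, as log10 (CPM + 0.1), with cells coloured by class: at least 100 CPM of Vip, of Avp, of both or of neither. The dashed line marks 100 CPM and the lowest row holds cells with no read. Penk and Oprl1 fill all classes, up to 9937 and 4307 CPM, while Pdyn and Pnoc cells lie almost all in the class with neither peptide.

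The precursors were rarely combined. At 100 CPM, 99 cells (33.3%) held any precursor, of which 93 held exactly 1, 5 held 2 and 1 held all 3. Any receptor was found in 121 cells, of which 6 held more than 1. A precursor and a receptor met in 44 cells, 55 cells held a precursor alone, 77 a receptor alone, and 121 cells (40.7%) none of the 7 genes. The combination that stood apart was Pnoc with its own receptor. Of the 21 Pnoc cells, 15 also held Oprl1 (71.4%, 47.8 to 88.7%), against 99 of the 276 other cells (35.9%, 30.2 to 41.8%). The Pearson correlation of the levels of Pnoc and Oprl1 was 0.34 among day cells and 0.09 among night cells. Both genes were also more frequent in cells with neither Vip nor Avp, as given below, and the part of that class in this overlap was not tested. Of the 66 Penk cells, 20 held Oprl1 (30.3%), against 94 other cells (40.7%), and these intervals overlap. Of the 19 Pdyn cells, 3 held Oprk1, its receptor (15.8%, 3.38 to 39.6%), against 9 of 278 others (3.24%, 1.49 to 6.06%), again with overlapping intervals.

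Penk was found in Vip cells more often than in other cells, while Pdyn and Pnoc were nearly absent from Vip and Avp cells. A Vip or Avp cell is one with at least 100 CPM of that transcript: 55 cells held Vip, 102 held Avp, 7 of these held both, and 147 held neither. Penk cells made up 21 of the 55 Vip cells (38.2%, 25.4 to 52.3%), against 45 of the other cells (18.6%, 13.9 to 24.1%). The level ran the other way, at 229.9 CPM over Vip cells and 319.6 CPM over other cells. Above 1000 CPM were 2 of the 55 Vip cells (3.64%) and 17 of the others (7.02%). The Vip share depended on the cells taken. Among the 148 cells with the lower cell numbers in the labels it was 44.1% of Vip cells against 10.5% of others, and among the cells with the higher numbers 28.6% against 25.8%. In Avp cells Penk was as frequent as elsewhere, in 23 of 102 (22.5%, 14.9 to 31.9%) against 43 of 195 (22.1%, 16.4 to 28.5%).

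Pdyn reached 100 CPM in 1 of 48 cells with Vip alone, in 2 of 95 with Avp alone, in 0 of 7 with both and in 16 of 147 with neither (10.9%, 6.35 to 17.1%). Pnoc reached it in 0 of 48, 0 of 95, 1 of 7 and 20 of 147 (13.6%, 8.51 to 20.2%). The pooled level of Pdyn was 6.42 CPM in Vip cells and 27.2 CPM in other cells, and 5.44 CPM in Avp cells and 33.8 CPM in other cells. That of Pnoc was 4.78 CPM in Vip cells and 59.2 CPM in other cells, and 3.58 CPM in Avp cells and 75.6 CPM in other cells. On the log2 (CPM + 1) scale used for all ratios here, Pdyn was 1.93 lower and Pnoc 3.38 lower in Vip cells, and 2.43 and 4.06 lower in Avp cells. The split held among the 222 cells with at least 100 CPM of SCN markers other than Vip and Avp, where Pnoc was found in 7 of 84 cells with neither peptide and in 1 of 138 Vip or Avp cells. It also held for Pdyn there, with 8 of 84 and 2 of 138.

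Oprl1 likewise favoured the cells with neither peptide. It reached 100 CPM in 73 of these 147 cells (49.7%, 41.3 to 58%), against 41 of the 150 Vip or Avp cells (27.3%). The direction was the same in the lower and the higher cell numbers, without the 113 cells with microglial markers, and among cells with SCN markers. In Vip cells the pooled level was 94.6 CPM, against 212 CPM in other cells (log2 ratio -1.16). In Avp cells fewer cells held Oprl1, 27 of 102 (26.5%, 18.2 to 36.1%) against 87 of 195 (44.6%, 37.5 to 51.9%), but those that did held more of it, with a median of 530.2 CPM against 297.8 CPM. The pooled levels were therefore close, at 206.04 CPM in Avp cells and 183.8 CPM in other cells. Oprk1 was found in 0 of 55 Vip cells, which allows up to 6.49%, and in 12 of the other cells (4.96%), and in 4 of 102 Avp cells and 8 of 195 others.

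In all, 4 of the 5 measured members were at least 2-fold lower in Vip cells (Pdyn, Pnoc, Oprk1 and Oprl1) and none higher. Of the 11854 measured genes, 25.0% were 2-fold apart, 7.66% higher and 17.3% lower. In Avp cells 2 members (Pdyn and Pnoc) were 2-fold lower, where 22.7% of 11924 genes were 2-fold apart, 9.23% higher and 13.5% lower. A gene was measured with at least 5 CPM in either set of cells. Oprm1 and Oprd1 fell short of this here and in the comparisons of time, cFOS label and firing below, so neither could be called.

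**Figure D2:**
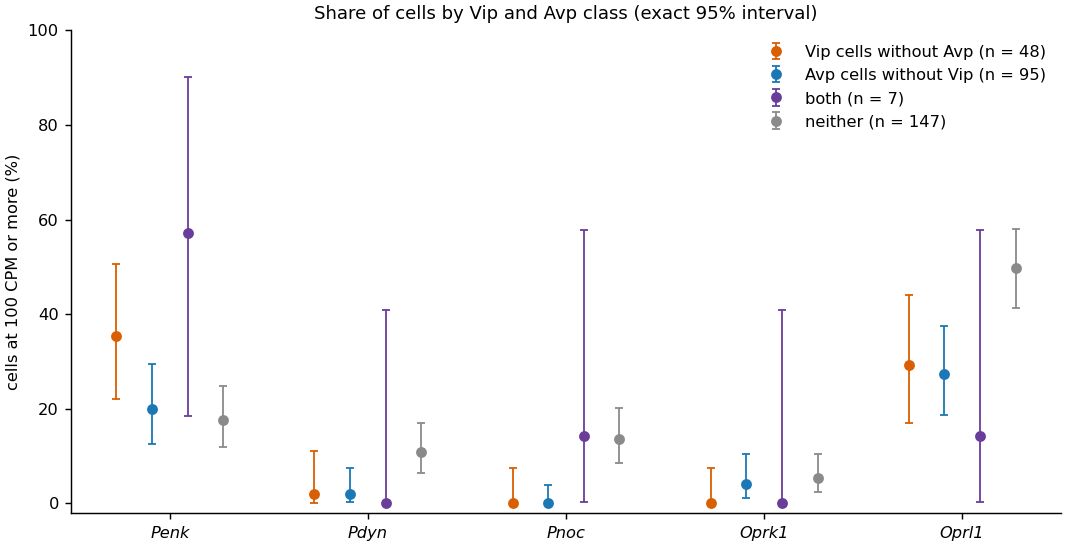
Share of cells at 100 CPM or more for the 5 members with more than 1 such cell, in cells with Vip alone, Avp alone, both or neither; bars are exact 95% binomial intervals. Penk is highest in the classes with Vip (35.4% with Vip alone), and Pdyn (10.9%), Pnoc (13.6%) and Oprl1 (49.7%) are highest, among the 3 classes with more than 7 cells, in cells with neither.

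Each precursor's cells held other genes at their own shares. In Penk cells, Lhx1, a transcription factor of SCN neurons, reached 100 CPM in 22 of 66 Penk cells (33.3%, 22.2 to 46.0%), against 24 of the other cells (10.39%, 6.77 to 15.1%). Of the other SCN markers, Six6 was found in 16.7% of Penk cells and 18.2% of others, Prokr2 in 19.7% and 23.4%, Rorb in 37.9% and 35.9%, and Rora in 57.6% and 45.9%, all with overlapping intervals. Neuromedin S, Nms, was found in 51.5% of Penk cells and 33.8% of others, with overlapping intervals. The vesicular glutamate transporter Slc17a6, a marker of glutamatergic neurons outside the SCN, reached 100 CPM in 1 Penk cell (1.52%) and in 27 of the others (11.7%), with overlapping intervals.

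In Pdyn cells, Slc17a6 reached 100 CPM in 9 of 19 Pdyn cells (47.4%, 24.4 to 71.1%), against 19 of 278 other cells (6.83%, 4.16 to 10.5%). Nms was found in 2 of 19 (10.5%), against 110 of 278 (39.6%), and Pomc, the precursor of beta-endorphin, in 5 of 19 (26.3%, 9.15 to 51.2%), against 12 of 278 (4.32%, 2.25 to 7.42%). Several other peptide precursors were found more often in Pnoc cells than in the rest. Cartpt, the CART precursor, was found in 10 of 21 Pnoc cells (47.6%) and 16 of 276 others (5.80%). Gal, the galanin precursor, was found in 8 (38.1%) and 13 (4.71%), Nts, the neurotensin precursor, in 6 (28.6%) and 9 (3.26%), and Tac1, the substance P precursor, in 4 (19.0%) and 2 (0.725%). Of the SCN markers, Rora, a clock-related nuclear receptor, was found in 1 of 21 Pnoc cells (4.76%) and in 143 of 276 others (51.8%). The intervals did not overlap in these Pnoc comparisons, nor for Slc17a6, Nms and Pomc in Pdyn cells or Lhx1 in Penk cells. The peptides with separate intervals were picked for that, and the shares of Lhx1, Slc17a6 and Rora were added after their values were seen. The separation is therefore no support for any of them.

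The SCN markers include Vip and Avp, so their sum was also taken over the other 6. Its median was 1158 CPM in Penk cells and 597.8 CPM in others, 173.3 CPM in Pdyn cells and 834.0 CPM in others, and 1.73 CPM in Pnoc cells and 864.6 CPM in others. At least 100 CPM of it was found in 50 of 66 Penk cells (75.8%) and 74.5% of others, in 10 of 19 Pdyn cells (52.6%, 28.9 to 75.6%) and 76.3% of others, and in 8 of 21 Pnoc cells (38.1%, 18.1 to 61.6%) and 77.5% of others (72.1 to 82.3%). Pnoc cells alone had an interval apart from that of the other cells, and whether the Pdyn and Pnoc cells lay inside the SCN was not tested. Microglial RNA also went with Pnoc: 13 of 21 Pnoc cells (61.9%) had 100 CPM of the 11 microglial markers, against 100 of 276 others (36.2%). In Penk cells the microglial share was 25.8% against 41.6%. Pdyn, Pnoc and Oprl1 cells also had more genes detected, with medians of 5627, 5727 and 5035 genes, against 4392, 4417 and 4258 in the other cells. The part of these markers and of gene detection in the overlaps was not tested.

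**Figure D3:**
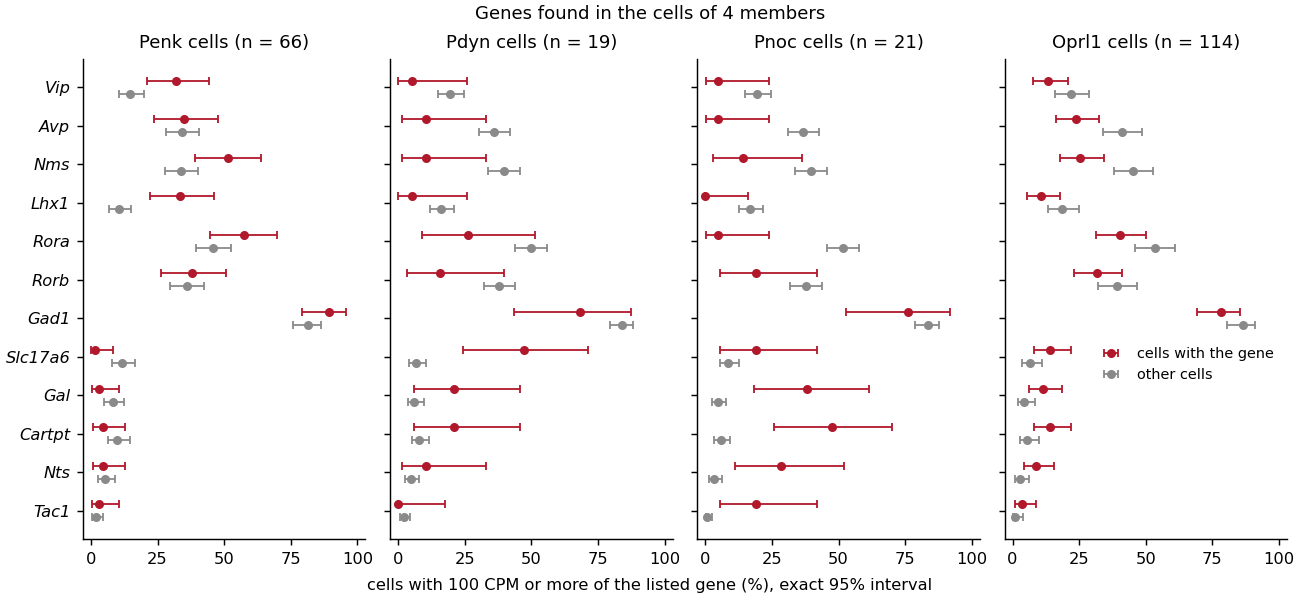
Share of cells with at least 100 CPM of each listed gene among Penk, Pdyn, Pnoc and Oprl1 cells (red) and among all other cells (grey), with exact 95% intervals; the genes shown were chosen after their values were seen. Vip and Lhx1 stand out in Penk cells, Slc17a6 in Pdyn cells (47.4%), and Cartpt, Gal, Nts and Tac1 in Pnoc cells.

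The genes whose levels were most like each member's were ranked over all 297 cells. Pearson correlations of log2 (CPM + 1) are given as descriptions: cells share their slices and differ in depth, and 7594 genes with 100 CPM in at least 20 cells were compared. For Penk the highest were Lhx1 (r = 0.27, rho = 0.20, day 0.28, night 0.26), the adhesion protein Flrt3 (0.24, rho 0.27), Chodl (0.22, rho 0.21), the histone variant H2afv (0.21, rho 0.13) and Nxt2 (0.20, rho 0.13), where 1 in 100 genes lay above 0.13. Chodl and Nxt2 were weak by night, at 0.10 and 0.07, against 0.37 and 0.37 by day. For Pnoc they were Gal (0.40, rho 0.35), Cartpt (0.37, rho 0.28), the endopeptidase Ecel1 (0.35, rho 0.32), the neurofilament Nefm (0.33, rho 0.33) and Shisa5 (0.32, rho 0.23). Oprl1 was most like the AMPA receptor subunit Gria1 (0.32, rho 0.31), the kinase Map4k2 (0.31, rho 0.28), Snx32 (0.31, rho 0.29), the prolactin receptor Prlr (0.30, rho 0.29) and Atp8b2 (0.30, rho 0.26). The other 4 members had too few cells at 100 CPM for such a list.

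Time of day was followed over the active and silent cells, 127 by day and 156 by night. In each of the 8 groups formed with firing and the cFOS label, the lowest cell had no read of any member, and the median cell had none of Penk, Pdyn, Pnoc or Oprk1. Oprl1 was lower by day, at 128.4 CPM, than by night, at 242.05 CPM (log2 ratio -0.91). By day 42 cells held it (33.1%, exact interval 25 to 42%), and by night 67 cells did (42.9%, 35.1 to 51.1%). It was lower by day in all 4 strata of firing and cFOS label, by 0.24 to 1.52 on the log2 scale. The contrast was widest in silent cells, with 15 of 49 by day (30.6%, 18.3 to 45.4%) and 36 of 69 by night (52.2%, 39.8 to 64.4%), while active cells had 34.6% and 35.6%. The pooled ratio was -0.07 among the lower cell numbers and -1.74 among the higher ones.

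Split by class over the same active and silent cells, Oprl1 was lower by day in cells with Avp alone. There 7 of 44 day cells (15.9%, 6.64 to 30.1%) held it at 79.7 CPM pooled, against 18 of 45 night cells (40%, 25.7 to 55.7%) at 387.4 CPM, with overlapping intervals of the shares. All 6 such cells above 1000 CPM were night cells. The day share was the lower one among both the lower cell numbers (17.6% and 50%) and the higher ones (14.8% and 30.4%). In cells with neither peptide the shares were 29 of 61 by day (47.5%) and 43 of 81 by night (53.1%), and in cells with Vip alone 6 of 21 by day (28.6%) and 5 of 24 by night (20.8%). Whether the classes differ in this was not tested. Oprk1 was found in 0 of 44 day cells (up to 8.04%) and 3 of 45 night cells (6.67%, 1.40 to 18.3%) with Avp alone, again with overlapping intervals.

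Pdyn was higher by day, at 36.4 CPM, than by night, at 15.05 CPM (log2 ratio 1.22), and its strata ranged from 0.51 to 4.37. The cells were few, 11 of 127 by day (8.66%) and 8 of 156 by night (5.13%), and night silent cFOS- cells had 3 reads in 1 cell. The ratio was 2.45 among the lower cell numbers and -0.18 among the higher ones, and 0.34 among cells with SCN markers. Without the 28 cells with 100 CPM of Slc17a6 it was 3.22, with 8 of 114 day cells and 2 of 141 night cells. Pnoc was 37.4 CPM by day and 63.4 CPM by night (log2 ratio -0.74), with shares of 7.09% and 7.69%, and its ratio was -1.97 without the cells with microglial markers. Penk was 257.3 CPM by day and 329.4 CPM by night, with shares of 18.9% and 23.7%, and its strata went both ways. Its share was highest in night active cells, 26 of 87 (29.9%, 20.5 to 40.6%), against 15 of 78 day active cells (19.2%, 11.2 to 29.7%). Pdyn alone among the 7 passed 2-fold between day and night, where 14.4% of 11856 measured genes did (7.44% lower), and 13.9% of them had 1 direction in all 4 strata. Microglial markers reached 100 CPM in 43.3% of day cells and 32.7% of night cells, and without the cells with them the Pdyn ratio was 0.17. Avp itself had 3633 CPM by day and 1211 CPM by night (log2 ratio 1.58), Vip 1790 CPM and 2972 CPM, and the SCN marker sum a median of 2813 CPM by day and 1208 CPM by night. The shares of Avp cells were 35.4% and 32.7%, and those of Vip cells 17.3% and 19.2%. The part of these in the day and night values was not tested.

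**Figure D4:**
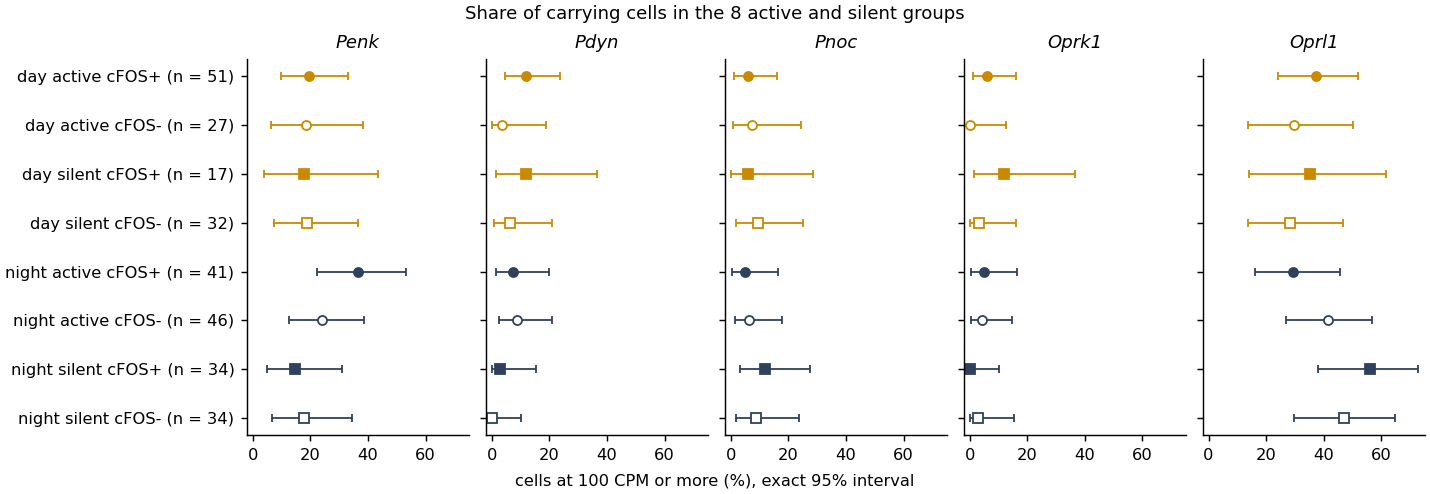
Share of cells at 100 CPM or more for 5 members in the 8 active and silent groups (circles active, squares silent, gold day, dark night, filled cFOS+, open cFOS-), with exact 95% intervals. Most intervals overlap; Oprl1 is highest in night silent cells (55.9% and 47.1%) and Penk in night active cFOS+ cells (36.6%).

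The pooled level of Penk was lower in cells labelled cFOS+, while the shares of Penk cells had overlapping intervals. The pooled level was 180 CPM in the 143 cells labelled cFOS+ and 418 CPM in the 139 labelled cFOS- (log2 ratio -1.21), and was lower with the cFOS+ label in all 4 strata, by 0.43 to 2.32. Penk cells made up 33 of 143 (23.1%, 16.4 to 30.9%) and 28 of 139 (20.1%, 13.8 to 27.8%), with medians of 575.4 and 567.8 CPM. The top cell held 2725 CPM among cFOS+ and 9937 CPM among cFOS- cells. All active and silent cells above 2725 CPM were labelled cFOS-, with 3739 to 9937 CPM. Leaving out 1 cell per set does not remove them, and a ratio without all of them was not taken. The ratio without the top cell of each set was -1.29. It was under 2-fold with the authors' normalized values (-0.91), with cells thinned to 1 depth (-0.86) and among the lower cell numbers (-0.29), and was -1.99 among the higher ones.

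Pdyn had 33.9 CPM in cells labelled cFOS+ and 15.5 CPM in those labelled cFOS- (log2 ratio 1.08), higher in 4 of 4 strata, with 12 of 143 and 7 of 139 Pdyn cells. It was 0.94 without the top cell of each set and 0.61 among the lower cell numbers. Oprk1 had 16.5 and 8.52 CPM, Pnoc 57.8 and 46.2 CPM, and Oprl1 213 and 170 CPM, cFOS+ before cFOS- in each, with shares for Oprl1 of 39.2% and 37.4%. The Pnoc ratio of 0.32 became 2.47 without the cells with microglial markers and 1.61 among cells with SCN markers. Penk and Pdyn were the 2 measured members past 2-fold, where 14.0% of 11828 measured genes were (5.74% higher and 8.29% lower). Of the measured genes, 13.2% had 1 direction in all 4 strata, as Penk and Pdyn did. The SCN marker sum had a median of 2938 CPM in cells labelled cFOS+ and 941 CPM in those labelled cFOS-, and microglial markers reached 100 CPM in 30.8% and 44.6% of them. Vip cells made up 24.5% of cells labelled cFOS+ and 12.2% of those labelled cFOS-. The part of these in the cFOS values was not tested. Among cells with SCN markers the Penk ratio was -0.89 and the Pdyn ratio 2.13.

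The pooled level of Pnoc was lower and that of Pdyn higher in active cells, while their shares of cells had overlapping intervals. Pnoc had 34.8 CPM in the 165 active cells and 75.3 CPM in the 118 silent cells (log2 ratio -1.09), and was lower in active cells in all 4 strata, by 0.49 to 1.53. The 3 cells above 1000 CPM were silent night cells, and the shares were 10 of 165 (6.06%, 2.94 to 10.9%) and 11 of 118 (9.32%, 4.75 to 16.1%). Pdyn had 33.2 CPM in active and 12.8 CPM in silent cells, with a log2 ratio of 1.31 and 14 of 165 (8.48%) and 5 of 118 (4.24%) Pdyn cells. Oprk1 had 16.8 CPM in active and 6.40 CPM in silent cells (log2 ratio 1.27), from 7 of 165 and 4 of 118 cells, and its strata ranged from -2.79 to 4.21. Penk was found in 41 of 165 active cells (24.8%, 18.5 to 32.2%) and 20 of 118 silent cells (16.9%, 10.7 to 25%), at 312.8 and 275.5 CPM. Pdyn, Pnoc and Oprk1 were the 3 measured members past 2-fold, where 13.5% of 11821 measured genes were (7.21% higher and 6.28% lower). Of the measured genes, 13.8% had 1 direction in all 4 strata, as Pdyn and Pnoc did. The Pnoc ratio was -0.84 without the top cell of each set, -0.76 without cells with microglial markers and -0.58 among the lower cell numbers. The Pdyn ratio was 0.83 without cells with microglial markers, and the Oprk1 ratio 0.94 among the lower cell numbers. The classes moved with firing too: Vip cells made up 39 of 165 active cells (23.6%) and 13 of 118 silent cells (11.02%), and Avp cells 47 (28.5%) and 49 (41.5%). Cells with neither were 49.1% of active and 51.7% of silent cells, and within them Pnoc had 69.1 CPM in active and 142.8 CPM in silent cells, and Pdyn 56.9 CPM and 24.3 CPM.

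Oprl1 was given by class for firing as well. Of the cells with neither Vip nor Avp, 33 of 81 active cells (40.7%, 29.9 to 52.2%) held Oprl1 at 148 CPM pooled, against 39 of 61 silent cells (63.9%, 50.6 to 75.8%) at 285.2 CPM, with intervals that just overlap. In cells with Avp alone the order was the opposite, with 16 of 45 active cells (35.6%, 21.9 to 51.2%) and 9 of 44 silent cells (20.5%, 9.80 to 35.3%), and with Vip alone it was 9 of 37 active and 2 of 8 silent cells. A difference between the classes was not tested. In cells with neither peptide the direction was the same in the lower cell numbers (42.9% and 70.6%), the higher ones (39.1% and 55.6%), without cells with microglial markers (20 of 50 and 21 of 29) and among cells with SCN markers (19 of 50 and 19 of 32). Over all classes the shares were 58 of 165 active cells (35.2%) and 51 of 118 silent cells (43.2%).

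**Figure D5:**
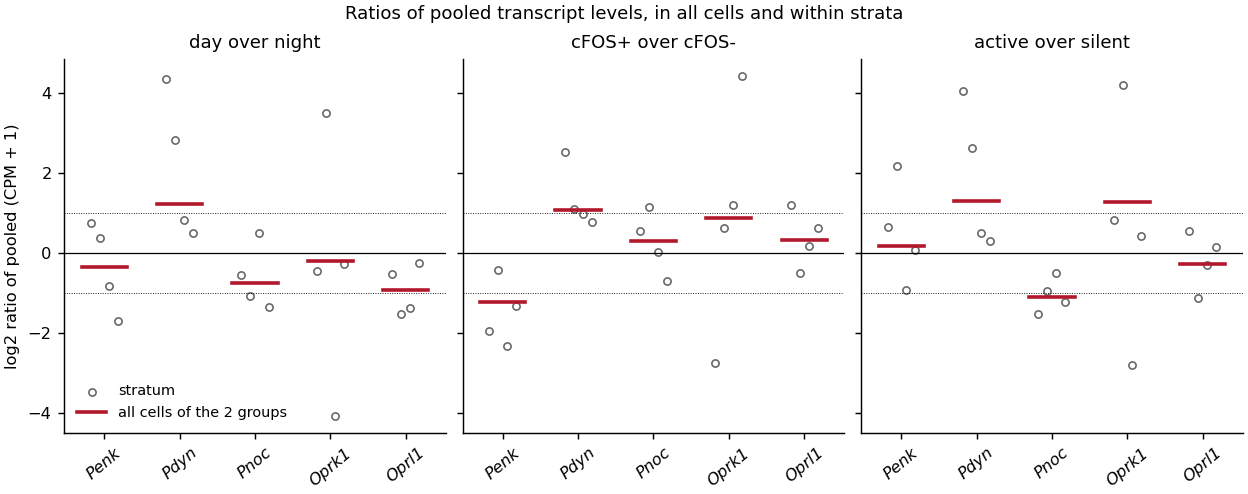
Log2 ratio of pooled (CPM + 1) for day over night, cFOS+ over cFOS- and active over silent cells; red lines use all cells of both groups, open circles are the 4 strata of the other labels, and dotted lines mark 2-fold. Pdyn lies above 0 in all strata of the 3 panels, Penk below 0 in all strata of the cFOS panel and Pnoc below 0 in all strata of the firing panel, while Oprk1 spans -4.06 to 4.43.

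The 14 depolarized cells held no read of Pdyn or Pnoc, which allows 0.0442 CPM at most by the Poisson interval and up to 23.2% of such cells at 100 CPM by the binomial one. Penk reached 100 CPM in 5 of the 14 (35.7%, 12.8 to 64.9%) and Oprl1 in 5. Among day cFOS- cells, the 7 depolarized ones had 738 CPM of Penk and 225 CPM of Oprl1, against 281.7 and 97.1 CPM in the 27 active ones. Cell 400 alone carried these differences: the other 6 depolarized cells had 131.8 CPM of Penk and 106.3 CPM of Oprl1, so Penk was then lower than in active cells. The active value of Penk also rested on 1 cell, at 9937 CPM, without which it was 77.5 CPM. There 59.3% of 11193 measured genes were 2-fold apart (20.7% higher and 38.6% lower). All 4 measured members were, Penk and Oprl1 higher and Pdyn and Pnoc lower, while Oprm1, Oprd1 and Oprk1 were not measured.

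The other genes of the pathway were read from lists of related genes. Pomc had 158 CPM over all cells but reached 100 CPM in 17 cells, with 308.98 CPM in cells labelled cFOS+ and 18.6 CPM in those labelled cFOS-. Its strata ranged from -1.68 to 5.85 on the log2 scale, lower with the cFOS+ label in night silent cells. It had 11.9 CPM in Vip cells and 188 CPM in other cells, and 17.8 CPM in Avp cells and 236.3 CPM in other cells. The opioid growth factor receptor Ogfr had 87.3 CPM and was within 2-fold in the 5 comparisons.

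All 12 genes of prohormone processing were measured, with levels from 6.96 CPM (Furin) to 6237 CPM (Scg2). After the granin Scg2 came the carboxypeptidase Cpe, which trims the cut peptides, with 2270 CPM, and the granin Chga with 1016 CPM. None of the 12 was 2-fold apart between day and night, with a median log2 ratio of 0.11 against -0.03 over all measured genes. The convertase Pcsk1 had 55.3 CPM in cells labelled cFOS+ and 27.05 CPM in those labelled cFOS- (1.01, same direction in 4 strata). Furin had 3.08 CPM in active and 12.3 CPM in silent cells (-1.70, same direction in 4 strata), but only 6 of all cells held 100 CPM of it. Chga had 2039 CPM in Vip cells and 799 CPM in other cells. It was 1 of 2 genes of the list 2-fold higher there, where 7.66% of all measured genes were, and 1 gene, Furin, was 2-fold lower, where 17.3% were. Of the 11 peptidases that degrade opioid peptides 7 were measured, led by Npepps (92.7 CPM), Thop1 (86.9 CPM) and Ece2 (65.5 CPM), and none was 2-fold apart by time, cFOS label or firing.

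Downstream of the receptors, 22 of 23 Gi/o signalling genes were measured. The largest pooled levels were those of the G protein subunits Gng3 (257.7 CPM) and Gnao1 (165.8 CPM) and of Rgs4 (193 CPM), which speeds the shut-off of Gi/o proteins. Rgs4 was 11.9 CPM in Vip cells and 231.2 CPM in other cells, and 23.7 CPM in Avp cells and 288.1 CPM in other cells, so it was low in the same classes as Pdyn and Pnoc. In Avp cells 9 of the 22 genes were 2-fold lower and none 2-fold higher, where 13.5% of all measured genes were lower and 9.23% higher, with a median log2 ratio of -0.77 against -0.03 over all measured genes. Between day and night 2 of the 22 were 2-fold higher by day and none lower, near the share over all measured genes (830 of 11856 higher). The arrestin Arrb2 was 1 of them, with 18.03 CPM by day and 7.96 CPM by night. Of the 12 effector genes, the calcium channels Cacna1e (247.8 CPM) and Cacna1a (67.4 CPM) and the adenylyl cyclase Adcy3 (124 CPM) led. The potassium channel Kcnj6, a direct target of Gi/o proteins, had 2.74 CPM by day and 10.7 CPM by night (-1.64, same direction in 4 strata), from 6 cells at 100 CPM.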

How the data were processed

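The authors deposited raw read counts per gene symbol for each cell, and a normalized signal that equalled those counts divided by 1 factor per cell (relative tolerance 1e-06). Per the submitters' processing notes, STAR, DESeq2 and the build GRCm38.p4 were used. The sources used here do not give the annotation, counting tool or strand setting, and without molecular identifiers the counts are reads. Library preparation used a Nextera XT kit, per the labels' protocols. All columns had a sample, no cell was filtered out and no doublet caller was run, since each library came from 1 pipette.

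Cells 70 and 71 correlated at 0.9995 across genes, against 0.696 for the next of 44253 pairs, and were averaged. Cells are not replicates and no animal is named, so counts were summed per group to CPM and no test was run. Called means at least 5 CPM in 1 group and 2-fold apart on log2 (CPM + 1). The pooled ratios and intervals were checked on simulated counts. Analyses used Python 3.11.15, pandas 2.3.3 and scipy 1.17.1. Gene positions came from GENCODE M21 (GRCm38), which need not be the authors' annotation.

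The members and all lists were chosen with earlier results of these data known. Named were the 7 members, Vip and Avp, the 5 genes most correlated with each member that had 100 CPM in at least 20 cells (predicted, ribosomal protein and mitochondrial genes left out), the 3 highest genes of each pathway list with those past 2-fold in 1 direction in 4 strata, and peptides whose share in a precursor's cells lay outside the interval of other cells. Of these peptides, those with separate intervals and Nms are described, and the SCN markers and Slc17a6 were added after their values were seen.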

Additional observations from a re-analysis of the deposited data

Results flagged for a closer look

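Among the 7 day depolarized cFOS- cells, cell 400 lay far above the others for Penk, at 5238 CPM, where 2 of the others were above 100 CPM, 1 had 15.7 CPM and 3 had 0 CPM. The same cell was the highest for Oprl1, at 1103 CPM, where the others had 390, 254.8, 5.06, 0.872 and, in 2 cells, 0 CPM. Both values passed Dixon's limit for an extreme value (0.901 for Penk and 0.647 for Oprl1, against 0.568). That limit is passed by chance in about 1 in 20 groups only where values are normally distributed. These values were skewed, with cells at 0 CPM, so that rate does not apply to them. Without cell 400 the other 6 cells had 131.8 CPM of Penk, against 281.7 CPM in the 27 day active cFOS- cells (log2 ratio -1.09, against 1.39 with it). They had 106.3 CPM of Oprl1, against 97.1 CPM (0.13, against 1.20 with cell 400).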

How the results depend on the processing

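The counts of members past 2-fold moved with the settings, as in the cases given here. Between day and night the count was 1, and 2 with the authors' normalized values, without cells with microglial markers, among the lower cell numbers, and without cells with Slc17a6. For the cFOS label it was 2, and 1 with the authors' normalized values, with all cells thinned to 4210000 reads (30 cells left out) and without the top cell of each set, and 0 among the lower cell numbers. With the cFOS label, Pnoc was also past 2-fold without cells with microglial markers (log2 ratio 2.47), and Oprk1 among the higher cell numbers (2.88). For firing the count was 3, and 1 among the lower cell numbers. Without cells with microglial markers, Penk (1.09) and Oprk1 (2.24) were past 2-fold for firing, while Pdyn (0.83) and Pnoc were not. Pnoc was also under 2-fold for firing without the top cell of each set. At 3-fold the count was 0 for time, cFOS label and firing. For Avp cells the count was 2, and 4 among cells with SCN markers, and Penk was also past 2-fold among the lower cell numbers (-1.58). For Vip cells the count was 4 and stayed between 3 and 5. The day over night ratio of Pdyn turned to -0.18 among the higher cell numbers. At a Penk threshold of 1000 CPM the share in Vip cells was 3.39 percentage points lower than in other cells (a difference of -3.39), and at 1000 CPM the Oprl1 share in Avp cells was 2.81 points higher. The ratios of Pdyn and Pnoc in Vip and Avp cells kept their direction and stayed past 2-fold in all 12 alternatives. The settings with SCN markers and Slc17a6, the value without cell 400, and all alternatives on shares, were chosen after seeing the data. No paired analysis was possible because no animal or slice is named and no test was run. Sets of 7 to 20 cells limit the precision, and differences between animals, slices and recording days cannot be told apart from the groups.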
